A study of Mus musculus with 6 samples.

Results

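The 38 genes described here are a list of cell cycle genes given by symbol and matched to the deposited table through their Ensembl identifiers in GENCODE release M21 (GRCm38). All 38 were found, each as 1 row, among 49315 rows. By known role, 6 belong to G1 (the D and E cyclins and E2f1), 12 to S phase (origin licensing, the replicative helicase, the clamp and nucleotide supply) and 20 to G2 and mitosis. RNA was sequenced from 6 hearts of C57BL/6 mice. The 3 wild-type hearts are labelled Txnip WT, and the 3 conditional knock-in hearts carry the Txnip C247S mutant. Txnip encodes the thioredoxin-interacting protein, and the mutation replaces the cysteine through which it binds thioredoxin. The labels name MerCreMer, a tamoxifen-inducible form of the Cre recombinase, and 4-hydroxytamoxifen as the treatment of both groups. They give neither the promoter that drives MerCreMer nor the age or sex of the mice, and whether wild-type mice also had the recombinase is not said. Each heart came from a different mouse, so the spread within a group is that between mice of 1 genotype.

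The cell cycle is driven by cyclins bound to cyclin-dependent kinases. D cyclins start the release of E2F transcription factors from the retinoblastoma protein, E2F switches on the genes of DNA replication, and a later wave of genes, repressed in resting cells by the DREAM complex, builds the spindle and divides the cell. Heart muscle cells of the adult mouse rarely divide, and most dividing cells of the adult heart are endothelial cells, fibroblasts and blood-derived cells. In RNA from a whole heart, fewer dividing cells and less RNA per dividing cell cannot be told apart.

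Promoters are shown for the 5 members with an unadjusted p under 0.05, to set the 3 mitotic ones beside the 2 replication genes. The sequences are those RefSeq gives on GRCm38.p6, from 250 bases before to 50 bases after the gene's start. The set of RefSeq promoters available here covered 30 of the 38 members. Capitals mark, on either strand, the cell cycle genes homology region (CHR; TTTGAA or TTCGAA), which the DREAM complex binds, the CCAAT box (CCAAT), which NF-Y binds, and the core of the E2F site (TTCCCGC or TTGGCGC or TTGCCGC or TTCGCGC).
Cenpf (chr1:189688037-189688336, minus strand): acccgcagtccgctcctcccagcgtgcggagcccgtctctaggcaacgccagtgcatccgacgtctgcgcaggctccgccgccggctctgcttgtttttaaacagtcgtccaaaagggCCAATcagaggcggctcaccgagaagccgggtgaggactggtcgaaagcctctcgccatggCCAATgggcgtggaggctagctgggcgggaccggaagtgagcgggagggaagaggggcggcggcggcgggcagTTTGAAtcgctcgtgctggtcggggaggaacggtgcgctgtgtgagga
Nusap1 (chr2:119618048-119618347, plus strand): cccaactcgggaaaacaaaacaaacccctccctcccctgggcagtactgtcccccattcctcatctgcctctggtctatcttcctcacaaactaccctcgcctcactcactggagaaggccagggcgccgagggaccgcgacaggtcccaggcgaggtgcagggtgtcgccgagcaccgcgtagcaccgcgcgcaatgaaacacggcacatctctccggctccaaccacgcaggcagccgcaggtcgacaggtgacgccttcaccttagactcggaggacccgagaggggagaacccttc
Prc1 (chr7:80294201-80294500, plus strand): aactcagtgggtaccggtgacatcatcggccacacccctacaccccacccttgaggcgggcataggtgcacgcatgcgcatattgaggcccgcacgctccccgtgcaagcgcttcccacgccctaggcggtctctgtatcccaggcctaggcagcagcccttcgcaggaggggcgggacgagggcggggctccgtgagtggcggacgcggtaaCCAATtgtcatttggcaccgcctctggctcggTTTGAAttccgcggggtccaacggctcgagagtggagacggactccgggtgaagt
Mcm3 (chr1:20820263-20820562, minus strand): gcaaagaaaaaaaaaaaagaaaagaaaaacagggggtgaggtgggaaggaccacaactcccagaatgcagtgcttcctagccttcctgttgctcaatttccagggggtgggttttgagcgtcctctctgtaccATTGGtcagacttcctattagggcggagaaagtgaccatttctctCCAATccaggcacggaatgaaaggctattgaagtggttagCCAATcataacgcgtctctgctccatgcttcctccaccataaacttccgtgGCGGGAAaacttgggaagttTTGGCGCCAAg
Rrm2 (chr12:24708004-24708303, plus strand): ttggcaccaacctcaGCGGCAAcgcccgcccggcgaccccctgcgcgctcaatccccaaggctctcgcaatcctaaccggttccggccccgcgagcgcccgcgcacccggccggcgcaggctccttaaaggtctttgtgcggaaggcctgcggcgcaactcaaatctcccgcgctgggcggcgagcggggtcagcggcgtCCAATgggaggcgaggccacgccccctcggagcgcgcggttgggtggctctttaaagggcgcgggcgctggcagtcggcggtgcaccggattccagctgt
The Cenpf and Prc1 promoters held both a CHR and a CCAAT box (for Prc1 in the first promoter listed), with the CHR of Cenpf starting 3 bases into the transcript and that of Prc1 5 bases before it. Mcm3 and Rrm2 held CCAAT boxes and E2F cores without a CHR. In Mcm3 2 E2F matches on opposite strands overlap. Nusap1 held none of these letters in this window.

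Over the 30 member promoters, 15 held a CHR, against 19.4% of the promoters of 27025 genes, taking the first promoter listed for each gene. A CCAAT box stood in 22 of the 30, against 37.9% of all, and an E2F core in 12, against 9.69% of all. The CHR was found in 13 of 16 mitotic promoters, 2 of 11 S-phase promoters and 0 of 3 G1 promoters. The E2F core was found in 8 of 11 S-phase and 4 of 16 mitotic promoters. These are matches of letters and not measured binding.

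Library totals ran from 14146048 to 15620476 counts, and 3 counts, the floor used here, were 0.192 to 0.212 CPM. CPM are counts scaled to the size of each library, with TMM factors that equalise library composition. Txnip itself stood at 752 ± 35.3 CPM in wild-type and 420 ± 25.0 CPM in knock-in hearts (SD, n = 3; edgeR adjusted p = 0.00379), which is the level of the transcript and does not read the edited codon. Cardiomyocyte genes were abundant in every library, with the 7 markers Myh6, Tnnt2, Tnni3, Actc1, Ryr2, Pln and Myl2 summing to 58664 to 61614 CPM in wild-type and 66078 to 70751 CPM in knock-in hearts. Of these 7, 6 had positive log2 fold changes and 1, Ryr2, a negative one. Myl2 alone was called, in edgeR, DESeq2 and limma-voom. Its mean was 10525 CPM in wild-type and 15409 CPM in knock-in hearts (log2 fold change 0.55 ± 0.09 SE, edgeR adjusted p = 0.0399). Wild-type heart 3 stood apart with 28.0% of its counts in mitochondrially encoded genes, against 22.9% to 24.3% in the other hearts.

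Only Cenpf, of the 38 members, passed the test over all genes (edgeR, Benjamini-Hochberg adjusted p under 0.05). It was higher in the knock-in hearts. Of the 12777 genes tested, 0.110% were called higher and 0.297% in either direction. The filter on low counts kept 31 members, each over the threshold level in at least 3 of the 6 hearts, whatever their genotype. Of these, 2 (Prc1 and Nusap1) were over it in all 3 knock-in hearts and only 2 wild-type hearts. Another 6 were over it in all 3 wild-type hearts and fewer knock-in hearts. The other 7 of the 38 members were too scarce to be tested. Of the 31, 26 had a positive log2 fold change of knock-in over wild-type, against 48.3% of all tested genes, and 5 had an unadjusted p under 0.05 in the higher direction, against 4.74% of all. None of the 31 had one in the lower direction, where 5.23% of all genes did (9.97% in either direction). Among tested genes with a mean under 5 CPM, 45.3% were positive and 3.39% had an unadjusted p under 0.05 in the higher direction. A mean under 5 CPM was found for 27 of the 38 members, which include the 7 that were not tested. Of the 5 members with an unadjusted p under 0.05, Rrm2, Prc1 and Nusap1 lay under 5 CPM and Cenpf and Mcm3 did not. These shares are therefore not those of a set matched to the 31.

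All 38 members could be fitted when the filter was dropped. Then 31 had a positive value, against 47.1% of 21655 genes. An unadjusted p under 0.05 was found for 5 in the higher direction (4.22% of genes) and 0 in the lower (4.45%). These were Cenpf, Nusap1, Prc1, Mcm3 and, in place of Rrm2, Plk1. Cenpf was again the 1 call, where 0.665% of genes were called higher and 1.46% in either direction. DESeq2 also called Cenpf and no other member, with 0.556% of genes called higher and 1.17% in either direction. Limma-voom called 0 members, and only 18 genes in all (7 higher).

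The median change differed by phase, which was not tested, and the order of S phase and mitosis turned without knock-in heart 1 (0.23 for tested S-phase and 0.19 for tested mitotic members). In the fit without a filter the median log2 fold change was 0.02 over the 6 G1 members, 0.21 over the 12 S-phase members and 0.38 over the 20 mitotic members, beside −0.02 over all genes. The summed level of the G1 members was 242, 205 and 217 CPM in wild-type hearts 1 to 3 and 240.4, 259.8 and 211 CPM in knock-in hearts 1 to 3. These groups overlapped. The S-phase members summed to 83.0, 77.5 and 77.2 CPM in the wild-type and 93.8, 85.1 and 97.3 CPM in the knock-in hearts. Here each knock-in heart lay above each wild-type heart, and the ratio of the means was 1.16. The mitotic members summed to 25.6, 26.5 and 20.1 CPM in the wild-type and 42.5, 37.0 and 41.0 CPM in the knock-in hearts, a ratio of 1.67. Most of that last difference, 67.9%, was Cenpf alone.

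**Figure D1:**
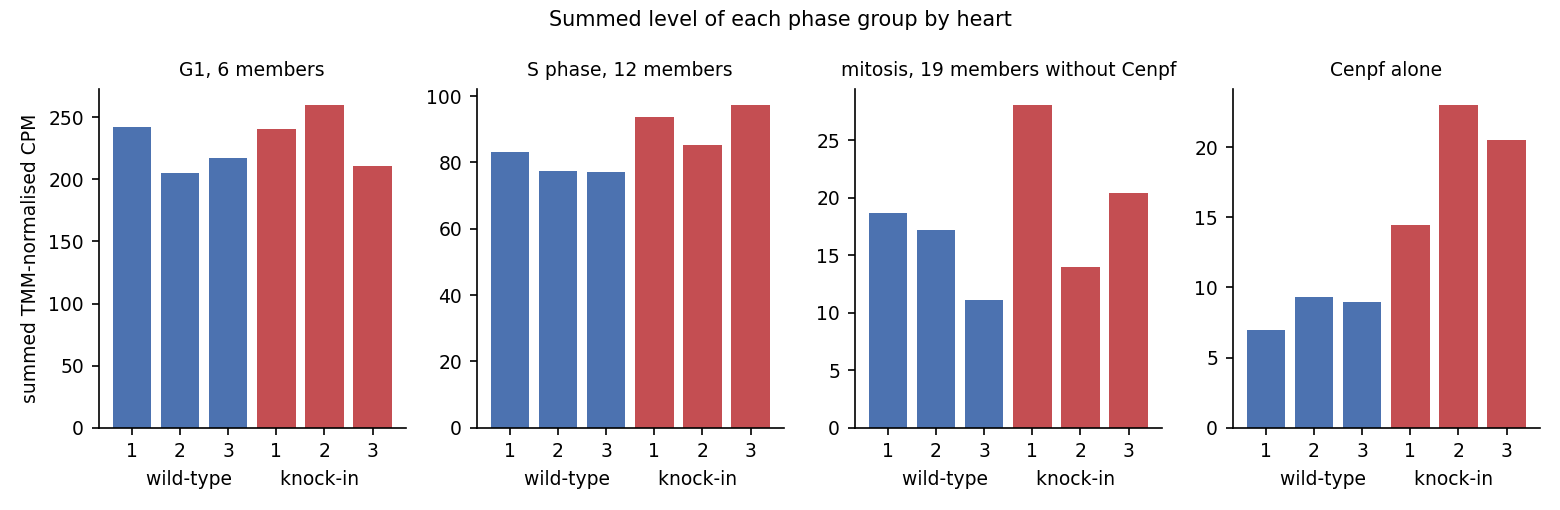
Bars give the summed TMM-normalised CPM of the 6 G1 members, the 12 S-phase members, the 19 mitotic members other than Cenpf, and Cenpf alone, in each of the 3 wild-type (blue) and 3 knock-in (red) hearts. G1 sums overlap between genotypes and S-phase sums do not (83.0 CPM at most in wild-type, 85.1 CPM at least in knock-in). The mean log2 levels of the S-phase members, which are not drawn, do overlap. Knock-in heart 2 has the highest Cenpf bar with a low bar for the other mitotic members.

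The D cyclins and Pcna were the most abundant members per length. D cyclins partner Cdk4 and Cdk6 to phosphorylate the retinoblastoma protein. Per kilobase of exon, the levels of Ccnd1, Pcna, Ccnd2 and Ccnd3 were 14.1, 11.8, 11.7 and 5.53 RPKM as means over the 6 hearts, and every other member lay at or under 1.93 RPKM. None of the 6 G1 members passed the test in edgeR, DESeq2 or limma-voom, and 0 had an unadjusted p under 0.05. Over all tested genes edgeR called 0.297%, and 9.97% had an unadjusted p under 0.05.

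Ccnd1 stood at 78.0, 59.5 and 52.9 CPM in the wild-type and 81.1, 62.0 and 65.6 CPM in the knock-in hearts. The groups overlapped, and its log2 fold change was 0.13 with a 95% interval of −0.21 to 0.48. Of its exon bases 23.4% also lie in exons of LTO1 on the opposite strand, so without a known strand setting some of its reads may come from there. Ccnd2 stood at 99.9, 94.1 and 117 CPM against 106, 149 and 95.2 CPM, with knock-in heart 2 above all others (log2 fold change 0.17, interval −0.19 to 0.53). Ccnd3 overlapped between the genotypes, at 59.6, 47.1 and 44.0 CPM against 49.4, 44.6 and 46.3 CPM. Its log2 fold change was −0.10, with an interval of −0.38 to 0.18.

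The E cyclins, which bind Cdk2 at the start of S phase, were scarce, at 12 to 37 counts per heart, and had values of opposite sign. For Ccne1 the log2 fold change was −0.63 ± 0.34 and for Ccne2 0.41 ± 0.30, with edgeR adjusted p = 0.592 and 0.729. The genotypes overlapped for both. E2f1, the activator of replication genes, had 21, 14 and 10 counts against 14, 7 and 14 counts (log2 fold change −0.41 ± 0.41).

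**Figure D2:**
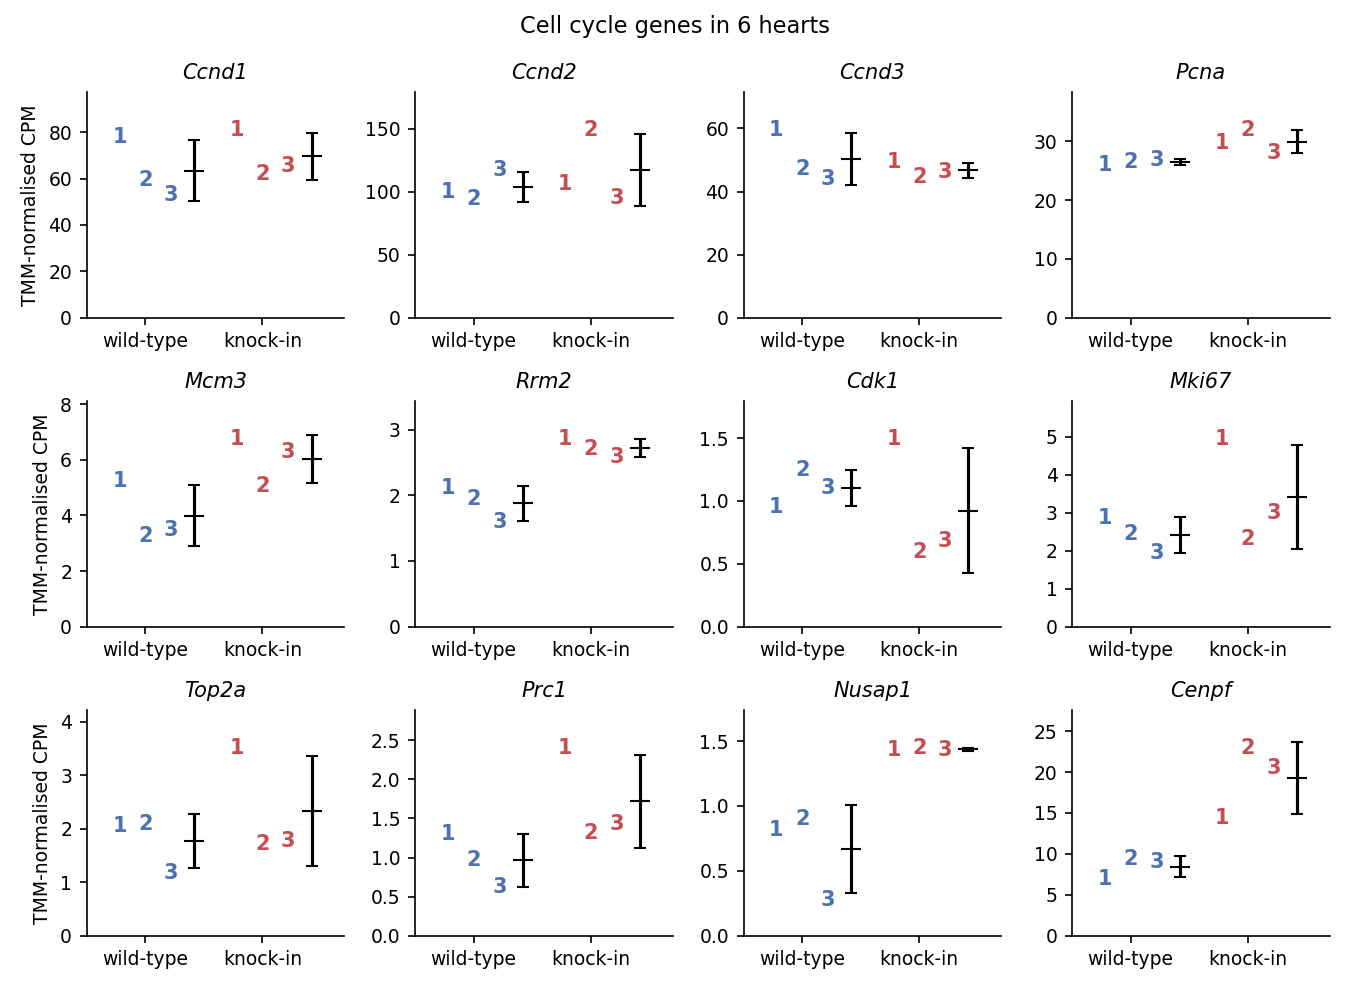
TMM-normalised CPM (linear axis from 0) of 12 members, with the digits 1 to 3 marking the hearts of each genotype at their values and black bars giving the mean and SD of 3 hearts. The hearts of the 2 genotypes overlap for the D cyclins, Mcm3, Cdk1, Mki67 and Top2a, and do not overlap for Pcna, Rrm2, Prc1, Nusap1 and Cenpf.

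All 11 tested S-phase members had positive log2 fold changes, from 0.01 for Mcm5 to 0.60 for Mcm3, though Cdt1 and Mcm5 turned negative with library-size scaling. Of the 11, 0 passed the test in edgeR, DESeq2 or limma-voom, where edgeR called 0.297% of all tested genes. Unadjusted p was under 0.05 for Mcm3 and Rrm2. The values of Cdt1 and Mcm5 also turned negative in 4 of the 6 fits that left out a heart.

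Licensing starts with Cdc6 and Cdt1, which load the Mcm helicase on origins. Cdt1 gave 19, 16 and 16 wild-type counts and 21, 8 and 25 knock-in counts, a log2 fold change of 0.03 ± 0.40. Of the 6 helicase subunits, Mcm3 had the largest value. It stood at 5.25, 3.26 and 3.46 CPM in the wild-type and 6.77, 5.07 and 6.27 CPM in the knock-in hearts (log2 fold change 0.60 ± 0.23 SE, edgeR adjusted p = 0.404). Wild-type heart 1 reached into the knock-in range. The other subunits form 1 ring with Mcm3, and their log2 fold changes were 0.20 for Mcm2, 0.27 for Mcm4, 0.01 for Mcm5, 0.17 for Mcm6 and 0.24 for Mcm7. Each of these 5 had overlapping groups, and 47.7% of the 31-base words of the Mcm7 transcript occur in other genes.

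Pcna, the sliding clamp of DNA polymerase, stood at 26.0, 26.5 and 26.9 CPM in the wild-type and 29.7, 32.0 and 28.1 CPM in the knock-in hearts. Each knock-in heart was higher, by 0.18 ± 0.11 on the log2 scale (edgeR adjusted p = 0.653). Of the words of Pcna 37.97% are shared with other genes, chiefly the pseudogene Pcna-ps2. Among the enzymes of nucleotide supply, Rrm2, the S-phase subunit of ribonucleotide reductase, stood at 2.11, 1.94 and 1.59 CPM against 2.86, 2.70 and 2.59 CPM. The groups did not overlap, and knock-in exceeded wild-type by 0.53 ± 0.23 in log2 (edgeR adjusted p = 0.488). Its partner subunit Rrm1 had 0.16 ± 0.13, with overlapping groups. Tyms, thymidylate synthase, had 16, 18 and 12 counts against 22, 19 and 21 counts (0.37 ± 0.30), without overlap. In the higher direction 6 members did not overlap between genotypes, Pcna, Rrm2, Tyms, Cenpf, Prc1 and Nusap1, against 8.12% of all tested genes (5.27% of those under 5 CPM). In the lower direction 0 did, against 7.99%, and 16.1% of all genes did in either direction. For groups that do not overlap, an exact two-sided permutation test of 3 against 3 hearts always gives p = 0.1, its smallest value. That p therefore adds nothing for the 6 non-overlapping members. Of those 6, Prc1 and Nusap1 were over the filter's threshold in all 3 knock-in hearts but only 2 wild-type hearts.

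**Figure D3:**
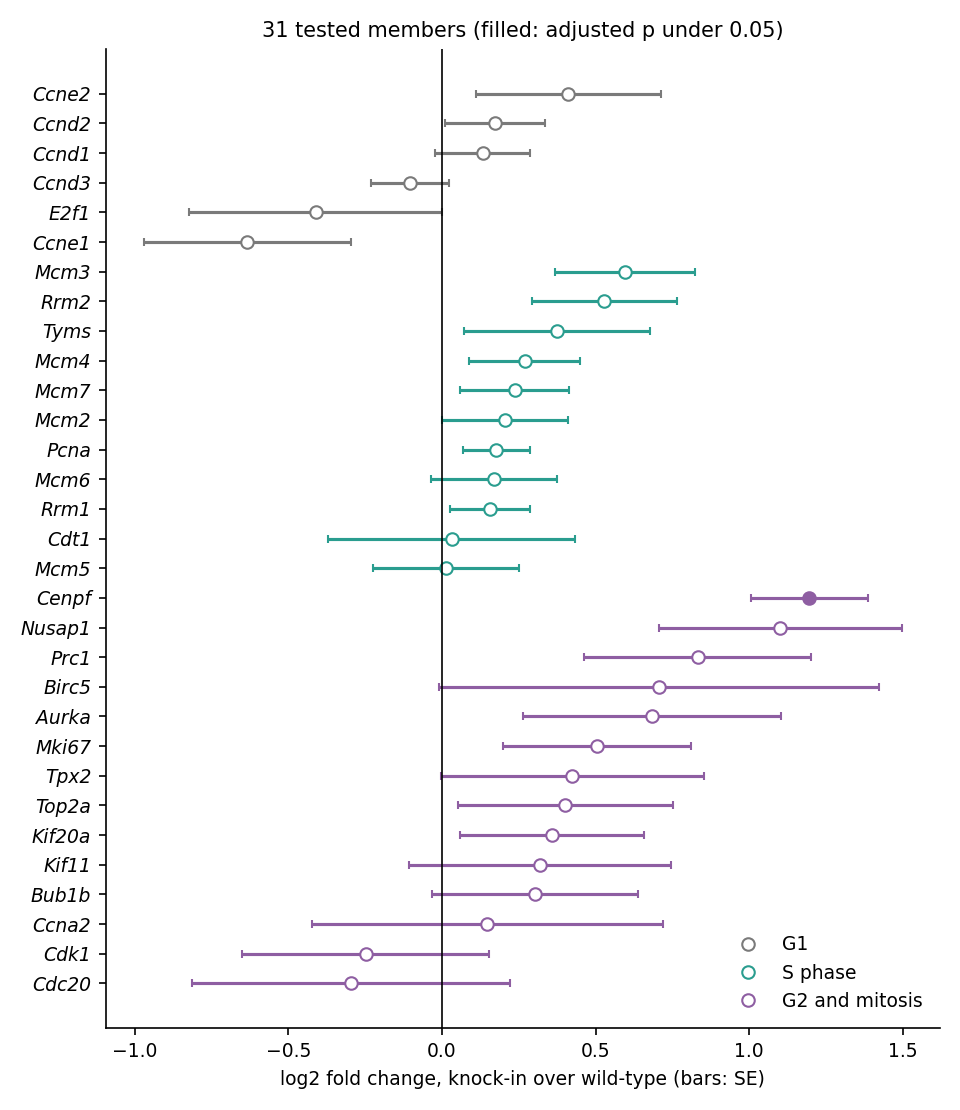
Points give the log2 fold change of knock-in over wild-type for the 31 tested members, with bars of 1 SE, grouped as G1 (grey), S phase (green), and G2 and mitosis (purple). Filled points passed an adjusted p under 0.05, which was Cenpf at 1.19, and G1 members lie on both sides of 0 while the S-phase points all lie above it (Cdt1 and Mcm5 fall below it with library-size scaling).

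Cenpf (ENSMUSG00000026605, chromosome 1, 189640606 to 189688086, GRCm38, minus strand) encodes a large coiled-coil protein of the outer kinetochore that accumulates in G2 and is also found at the nuclear envelope. Wild-type counts were 102, 135 and 130, and knock-in counts 222, 349 and 301, or 6.95, 9.35 and 8.997 CPM against 14.4, 23.0 and 20.5 CPM. The lowest knock-in heart was thus above the highest wild-type heart. Mean Cenpf was 8.43 ± 1.29 CPM in wild-type and 19.3 ± 4.40 CPM in knock-in hearts (SD, n = 3). Knock-in over wild-type was 2.29-fold, or 1.19 ± 0.19 in log2 (95% interval 0.77 to 1.62, edgeR adjusted p = 0.0399). Cenpf ranked 21 by p among the tested genes. Its exons overlap no other annotated gene, and 1.10% of its words occur elsewhere.

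The call on Cenpf was lost in some fits that left out a heart, while its size moved less. The log2 fold change lay between 1.06 and 1.38 in the 6 fits that left out a heart. The call held without knock-in heart 1 or 2 (adjusted p = 0.00718 and 0.0127). It was lost without wild-type heart 1, 2 or 3 (adjusted p = 0.141, 0.157 and 0.144) and without knock-in heart 3 (adjusted p = 0.209), and also in limma-voom (adjusted p = 0.0666). Without those same single hearts the unadjusted edgeR p of Cenpf was 0.00030 to 0.00051. Calls over all genes also fell there, from 38 to 14, 5, 13 and 6. They were 28 and 174 without knock-in heart 1 or 2.

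The other 19 mitotic members together did not separate the genotypes. They summed to 18.7, 17.2 and 11.1 CPM in the wild-type and 28.0, 13.97 and 20.4 CPM in the knock-in hearts. Knock-in heart 2 lay below wild-type hearts 1 and 2. The means were 15.7 ± 3.99 and 20.8 ± 7.04 CPM (SD, n = 3), a ratio of 1.33 that became 1.10 without knock-in heart 1 and 1.55 without knock-in heart 2. Cenpf and the other mitotic members therefore ordered the hearts differently. Knock-in heart 2 had the highest Cenpf level but was the lowest heart for 9 of the 19 others, and knock-in heart 1 had the lowest Cenpf level of the knock-in hearts but was the highest for 12 of the 19. The share of all mitotic counts that were Cenpf was 62.2% in knock-in heart 2 (95% exact binomial interval 58.1% to 66.2%, counting error only) and 34.0% in knock-in heart 1 (30.4% to 37.8%). Knock-in heart 3 lay between them at 50.1% (46.0% to 54.2%). In the wild-type hearts it was 27.1%, 35.2% and 44.7%. This comparison was made after the values were seen.

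**Figure D4:**
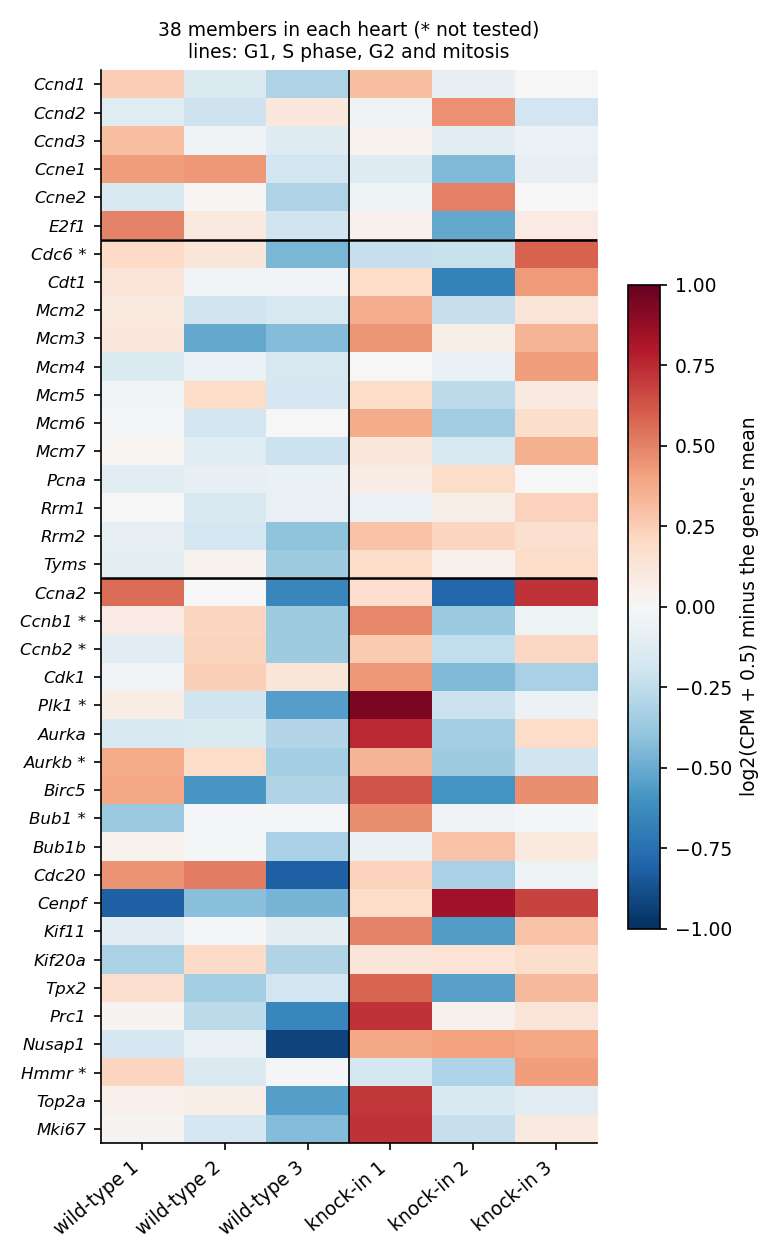
Colours give log2(CPM + 0.5) minus the gene's mean over the 6 hearts for all 38 members (red higher, blue lower), ordered by phase, with an asterisk on the 7 members that were not tested. Most mitotic rows are reddest in knock-in heart 1 and blue in wild-type heart 3 and knock-in heart 2, whereas Cenpf is reddest in knock-in heart 2.

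Among the customary readouts of dividing cells, Mki67, which coats mitotic chromosomes, stood at 2.86, 2.42 and 1.94 CPM in the wild-type and 4.94, 2.31 and 3.00 CPM in the knock-in hearts. Knock-in heart 1 was high and knock-in heart 2 lay within the wild-type range (log2 fold change 0.50 ± 0.31 SE, edgeR adjusted p = 0.648). Top2a, the topoisomerase that untangles replicated DNA, had the same shape, at 2.04, 2.08 and 1.18 CPM against 3.51, 1.71 and 1.77 CPM (0.40 ± 0.35). Cdk1, the mitotic kinase, stood at 0.954, 1.25 and 1.11 CPM against 1.4964, 0.593 and 0.682 CPM. Knock-in hearts 2 and 3 were the lowest of all 6 for Cdk1 (log2 fold change −0.25 ± 0.40). Its partner Ccna2 ranged from 6 to 30 counts with overlapping groups (0.15 ± 0.57).

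Nusap1 and Prc1, both of which bind and bundle spindle microtubules, were the mitotic members after Cenpf with an unadjusted p under 0.05. Nusap1 gave 12, 13 and 4 wild-type counts and 22, 22 and 21 knock-in counts. The groups did not overlap, and wild-type heart 3 was lowest (log2 fold change 1.10 ± 0.40 SE, edgeR adjusted p = 0.365). Prc1 had 19, 14 and 9 counts against 37, 20 and 21 counts, also without overlap (0.83 ± 0.37 SE, edgeR adjusted p = 0.488). Of its exon bases 11.1% lie in exons of Rccd1 on the opposite strand.

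The remaining tested mitotic members were scarce and overlapped between genotypes. Aurka, the centrosomal Aurora kinase, had 12, 12 and 10 counts against 30, 10 and 17 counts, with knock-in heart 1 high (0.68 ± 0.42). Tpx2, which activates Aurka, repeated that order of the knock-in hearts with 29, 9 and 22 counts, against 19, 11 and 13 in the wild-type (0.42 ± 0.43). Kif11, the motor that separates spindle poles, had 0.32 ± 0.43, and Kif20a, a motor of cytokinesis, 0.36 ± 0.30, though 29.3% of the exon bases of Kif20a lie in exons of Cdc23. The survivin gene Birc5 had 0.71 ± 0.72 and the checkpoint kinase gene Bub1b 0.30 ± 0.34. Cdc20, which activates the anaphase-promoting complex, had −0.30 ± 0.52 and was, with Cdk1, the other tested mitotic member with a negative value.

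The 7 members that were not tested had 0 to 14 counts in any heart. Plk1, the Polo kinase, gave 4, 2 and 0 wild-type counts and 14, 2 and 3 knock-in counts, so knock-in heart 1 held most of its reads. The cyclin B genes, whose products activate Cdk1, were near the floor. Ccnb1 gave 4, 5 and 1 wild-type counts and 8, 1 and 3 knock-in counts, and shares 46.9% of its words, chiefly with Ccnb1-ps. Summed over the 3 hearts of a genotype, wild-type first, Ccnb2 had 16 and 21 counts. Summed in the same way, Bub1, a checkpoint kinase, had 4 and 10 counts, Aurkb, the kinase of the chromosomal passenger complex, 16 and 13, Hmmr, a spindle protein, 13 and 13, and Cdc6 20 and 24.

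Further genes of the cycle, 138 in 6 lists, held 0 calls in edgeR, DESeq2 and limma-voom. Few genes were called at all, 0.297% in edgeR, 1.17% in DESeq2 and 18 genes in limma-voom. Of them 95 were tested, with 64 positive and 31 negative log2 fold changes and a median of 0.12, beside −0.01 over all tested genes. Unadjusted p was under 0.05 for 7 in the higher and 2 in the lower direction, against 4.74% and 5.23% of all tested genes. The brakes of the cycle, the CDK inhibitors and pocket proteins, had 3 positive and 5 negative values among 8 tested. Rb1, the retinoblastoma gene, had the smallest p among them (−0.36 ± 0.17 SE, edgeR adjusted p = 0.525). In the list of E2F, DREAM and mitotic regulators, 6 were positive and 6 negative. Its smallest p belonged to Rbbp4, a histone chaperone of the DREAM core (0.28 ± 0.10, adjusted p = 0.365). Foxm1, an activator of mitotic genes, was too scarce to be tested, with 3 to 10 counts per heart, as was Mybl2, with 0 to 3.

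Among interphase CDKs and their regulators 9 of 11 tested values were positive, with Cks1b, a CDK-binding subunit, at 0.55 ± 0.23 (edgeR adjusted p = 0.456). Of 33 tested genes of the replication origin and fork 20 were positive and 13 negative. Rpa1, the large subunit of the single-strand binding protein, had the smallest p there, at 51.9, 52.5 and 56.8 CPM against 66.6, 69.4 and 70.0 CPM (0.35 ± 0.10, edgeR adjusted p = 0.215). Among the centromere and kinetochore genes, the family to which Cenpf belongs, 10 of 12 tested values were positive and 2 negative. Cenpa, the centromeric histone, stood at 20.7, 24.8 and 18.5 CPM against 27.8, 28.9 and 31.8 CPM without overlap (0.47 ± 0.13, edgeR adjusted p = 0.237). Spc24, a subunit of the Ndc80 kinetochore complex, lay the other way, at 5.998, 4.50 and 5.19 CPM against 3.84, 3.16 and 3.61 CPM (−0.56 ± 0.20, edgeR adjusted p = 0.357), also without overlap. Of 19 tested genes of the spindle, condensation, anaphase and cytokinesis 16 were positive. Racgap1, a regulator of cytokinesis, had the smallest p (0.97 ± 0.43, edgeR adjusted p = 0.484), with overlapping groups.

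Markers of cells that may divide in the heart varied between the same hearts, and their part in the cell cycle values was not tested. The 7 endothelial markers summed to 765, 525 and 603 CPM in the wild-type and 807, 506 and 799.6 CPM in the knock-in hearts. Knock-in hearts 1 and 3 and wild-type heart 1 were thus the 3 highest hearts, as they were for the 19 mitotic members without Cenpf. The 7 fibroblast markers gave 535, 528 and 518 CPM against 614, 495 and 597 CPM, with the same 3 hearts highest. Neither list held a call in edgeR, DESeq2 or limma-voom or an unadjusted p under 0.05. Over all tested genes these were 0.297% (edgeR calls) and 9.97%. The smallest p in the 2 lists belonged to Kdr (−0.38 ± 0.17, edgeR adjusted p = 0.501) and Dcn (0.16 ± 0.09, edgeR adjusted p = 0.626).

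Of the blood and immune markers, the 8 red cell markers summed to 410, 549 and 551 CPM in the wild-type hearts. In the knock-in hearts they summed to 1211, 1618 and 1267 CPM. Knock-in heart 2 was highest here, as for Cenpf, and Hbb-bs made up most of the sum. Of 7 tested members 4 were called higher in edgeR, among them Hbb-bs and Hba-a1, against 0.110% of all tested genes. Klf1, a transcription factor of nucleated erythroid precursors, had 0 to 3 counts in any heart. The 9 macrophage and monocyte markers had negative values throughout. They summed to 349 to 403 CPM in the wild-type and 262 to 284 CPM in the knock-in hearts. Of the 9, 6 had an unadjusted p under 0.05, against 5.23% of all tested genes in the lower direction. In edgeR 1 of them, Lyz2, was called lower, against 0.188% of tested genes. DESeq2 called 4 of them (1.17% of genes in either direction) and limma-voom 0 (18 genes in all). The neutrophil list gave 3.48 to 7.27 CPM against 7.23 to 15.0 CPM. This was carried by S100a9 (1.68 ± 0.33 SE, edgeR adjusted p = 0.0897, called by DESeq2) and S100a8 (1.23 ± 0.44, edgeR adjusted p = 0.375). Csf3r, also tested, had −0.06 ± 0.40. Of the precursor genes in the neutrophil list, Mpo had at most 1 count and Elane 0 in all hearts. The 7 lymphocyte markers summed to at most 1.65 CPM. The 7 smooth muscle and pericyte markers summed to 636 to 697 CPM against 543 to 561 CPM. Acta2 was called lower, from a mean of 189 to 80.1 CPM, while 4 of the 7 had positive values and the median was 0.08. The 5 epicardial markers summed to 3.26 to 6.07 CPM against 1.98 to 2.31 CPM, with Wt1 the 1 tested member (−0.44 ± 0.24, edgeR adjusted p = 0.608).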

How the data were processed

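RNA from 6 mouse hearts was isolated with an RNeasy kit and sequenced from NEBNext Ultra II libraries, as the labels' protocols say. The authors deposited 1 table of raw counts per Ensembl gene, without normalization. GRCm38.p6 and the tools featureCounts, STAR, DESeq2 and Subread 1.5.2 are listed, without roles, in the submitters' processing notes. Not given in the sources here are the strand setting, the annotation release and how multi-mapping reads were treated. Each column name was tied to 1 sample through its description. Replicate numbers follow accession order and pair nothing. Within genotypes, pairs of hearts differed beyond counting noise, with chi-square 6.70 to 25.1 per degree of freedom.

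Genes were fitted together in edgeR 4.0.16 (R 4.3.3) with filterByExpr, TMM and the robust quasi-likelihood fit and test of genotype, with p adjusted by Benjamini-Hochberg over all 12777 tested genes. The SE of a log2 fold change was derived from its F statistic. Binomial intervals and the floor of 3 counts reflect counting error alone, as the labels name no molecular identifiers. RPKM use the union of a gene's exons. Shared sequence is the share of 31-base words of the longest transcript found in other genes. Alternatives were DESeq2 1.42.0 and limma-voom (limma 3.58.1), scaling by RLE, upper quartile or library size, dropping the filter or asking for a mean of 1 CPM, a non-robust fit, a threshold of 0.1, and omission of each heart, of mitochondrially encoded genes, and of members sharing sequence.

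The members, gene lists and tests were chosen with earlier results of these data known. All 38 members are described. In each further list the called genes (up to 4, or 2 for markers) or the gene with the smallest p are named. Foxm1, Mybl2, Spc24, S100a8, Csf3r, Klf1, Mpo, Elane and the comparison of Cenpf with the other mitotic members were added after values were seen.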

Additional observations from a re-analysis of the deposited data

How the results depend on the processing

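No paired analysis was possible because replicate numbers follow accession order and carry no pairing. Over all genes, 38 were called (14 higher, 24 lower). DESeq2 called 139 (66 and 73), no filter 317 (144 and 173), limma-voom 18 (7 and 11) and an adjusted p under 0.1 75 (28 and 47). Leaving out 1 heart gave 5 to 174 calls, 2 to 88 higher and 3 to 86 lower, with the fewest without wild-type replicate 2 and the most without knock-in replicate 2. Cell cycle calls were 1 with all hearts, 0 with limma-voom, and 0 to 1 without 1 heart. The adjusted p of Cenpf ran from 1.79e-10 without a filter to 0.209, and its log2 fold change from 1.06 to 1.38. Positive members numbered 22 (without knock-in replicate 1) to 26 of 31 without 1 heart.

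The median over tested members, 0.41 for mitosis, 0.20 for S phase and 0.01 for G1, ran without 1 heart from 0.19 (knock-in replicate 1) to 0.71 (knock-in replicate 2), from 0.13 (knock-in replicate 3) to 0.37 (knock-in replicate 2), and from −0.09 (wild-type replicate 3) to 0.09 (wild-type replicate 1). The log2 ratio of summed mitotic CPM was 0.74, but 0.26 as a mean of log2 levels and 0.41 without Cenpf, an alternative chosen after seeing the data. Without 1 heart the log2 ratios of the sums ran from 0.62 to 0.81 for mitosis, 0.18 to 0.28 for S phase and 0.04 to 0.18 for G1. The cause of these moves was not tested.

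Of 31 tested members 22 kept their sign under every alternative run. With 1 heart left out, the log2 fold change of Ccna2 ran from −0.42 to 0.67, of Ccnd2 from −0.033 to 0.30, of Ccnd3 from −0.19 to 0.037, of Cdc20 from −0.74 to 0.030, of Cdk1 from −0.77 to 0.00083, of Kif11 from −0.0075 to 0.69, of Top2a from −0.010 to 0.59, of Cdt1 from −0.30 to 0.40 and of Mcm5 from −0.087 to 0.16. Cdt1 also turned to −0.0073 with library-size scaling and −0.12 with limma-voom, and Mcm5 to −0.027 with library-size scaling. With counts of 30 or fewer in every heart for Ccna2, Cdc20, Cdk1 and Kif11, depth limits what could be called.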
